A study of Homo sapiens with 9 samples.

Results

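The Wnt feedback and target genes described here are AXIN2, NKD1, RNF43, ZNRF3, NOTUM, APCDD1, DKK1, SP5, LEF1 and TCF7, a set of 10 chosen by gene symbol from the 58920 genes listed in the count tables. The set was chosen with earlier results of these data known. LIM1215 is a RAS wild-type colorectal cancer cell line, and cetuximab is an antibody against the receptor EGFR. LIM1215-R1 and LIM1215-R2 are independent, mixed (non-clonal) populations selected by rising cetuximab exposure over months, and LIM1215-parental was grown alongside without the antibody. Both resistant populations are described as carrying, in a subpopulation of cells, an HRAS mutation that differs between them and was found, not introduced. They were otherwise kept in cetuximab, but the RNA came from all 3 lines in untreated culture, with 3 libraries per line; the time since withdrawal is not given in the sources used here. The replicates of a line are described as technical, so p-values measure the spread between libraries of 1 population and not between separate selections.

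Wnt proteins bind Frizzled receptors together with LRP co-receptors, which stops a cytoplasmic destruction complex from degrading β-catenin. β-catenin then enters the nucleus and switches on genes through DNA-binding proteins of the TCF/LEF family. Several of these target genes encode inhibitors of the same pathway, so the pathway limits itself, and in the colon epithelium this circuit is known for maintaining crypt stem cells and for being overactive in most colorectal cancers.

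Total counts per library ranged from 13737416 to 18725014, and the limit that a count of 0 allows (3 counts) was 0.158 to 0.217 CPM (reads counted for a gene, per 1000000 counted in the library) in a single library. Libraries of the same line had correlations of 0.9895 to 0.992, and their counts differed by more than sampling noise (chi-square per degree of freedom 1.82 to 6.04). Of the 10 epithelial colorectal markers, 9 lay over 1 CPM in every line, and KRT20, a keratin of differentiated intestinal cells, had 0 counts in all libraries. Among the 10 fibroblast and mesenchymal markers, VIM, COL1A2 and PDGFRA had 0 counts in all libraries, as had the immune markers PTPRC and CD3E. COL1A1, PDGFRB and ACTA2 were detected, with means of 1.28, 1.21 and 1.43 CPM in LIM1215-parental. The summed fibroblast and mesenchymal markers ranged over 3.97 to 4.42 CPM in LIM1215-parental, 17.0 to 18.4 CPM in LIM1215-R1 and 12.5 to 15.0 CPM in LIM1215-R2. Without the transcription factor gene PRRX1 these sums were 3.97 to 4.42, 3.32 to 3.93 and 2.29 to 3.10 CPM. The summed immune and endothelial markers, mostly CD68, ranged over 7.08 to 10.8, 12.1 to 14.5 and 8.62 to 10.5 CPM in the same order, and the part of these genes in the results was not tested. Among them PECAM1 had 15 counts over the parental libraries, 10 of them in replicate 2, and 0 in both resistant lines.

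The promoter sequences of 6 of the 10 genes were matched in RefSeq (GRCh38.p14), giving 8 windows from 250 bases before to 50 bases after an annotated start: SP5, LEF1, DKK1 and APCDD1 with 1 window each, and TCF7 and RNF43 with 2 each. Each window was searched on both strands for the TCF/LEF motif spellings CTTTGAA as well as CTTTGAT, then CTTTGTA, and lastly CTTTGTT, which cannot overlap each other on 1 strand. A match was found in 3 of the 8 windows, and in 4829 of all 35116 windows in the table, or 13.8%. Shown are the 3 windows with a match, those of DKK1, TCF7 (the second start) and SP5, and the window of APCDD1, which had the largest difference from parental cells. This choice favors windows with matches and was made after the values were seen: both windows of RNF43, a gene also higher in both resistant lines, the first window of TCF7 and that of LEF1 held no match and are not printed. Capitals mark the motif matches on either strand, and each sequence is written 5′ to 3′ on the strand of the gene, which is the plus strand for all of them.
DKK1 (chr10:52314031-52314330): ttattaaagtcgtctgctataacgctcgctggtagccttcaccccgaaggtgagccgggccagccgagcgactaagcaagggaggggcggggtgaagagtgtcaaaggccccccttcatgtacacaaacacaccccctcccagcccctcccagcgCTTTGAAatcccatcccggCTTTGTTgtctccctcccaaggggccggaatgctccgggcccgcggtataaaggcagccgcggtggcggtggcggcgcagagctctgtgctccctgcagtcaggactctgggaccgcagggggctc
TCF7 (chr5:134123368-134123667): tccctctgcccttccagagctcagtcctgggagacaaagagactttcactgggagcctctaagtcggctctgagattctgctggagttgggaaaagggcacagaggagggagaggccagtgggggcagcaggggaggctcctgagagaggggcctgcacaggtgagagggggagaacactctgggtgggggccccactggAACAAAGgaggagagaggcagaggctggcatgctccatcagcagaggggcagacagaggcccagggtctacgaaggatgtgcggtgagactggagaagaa
SP5 (chr2:170715087-170715386): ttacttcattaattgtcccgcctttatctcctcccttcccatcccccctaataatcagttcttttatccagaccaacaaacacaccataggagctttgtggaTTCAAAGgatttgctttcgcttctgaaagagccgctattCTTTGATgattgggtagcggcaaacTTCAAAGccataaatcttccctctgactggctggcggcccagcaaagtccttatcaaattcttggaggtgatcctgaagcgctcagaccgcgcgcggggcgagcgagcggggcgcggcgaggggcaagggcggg
APCDD1 (chr18:10454385-10454684): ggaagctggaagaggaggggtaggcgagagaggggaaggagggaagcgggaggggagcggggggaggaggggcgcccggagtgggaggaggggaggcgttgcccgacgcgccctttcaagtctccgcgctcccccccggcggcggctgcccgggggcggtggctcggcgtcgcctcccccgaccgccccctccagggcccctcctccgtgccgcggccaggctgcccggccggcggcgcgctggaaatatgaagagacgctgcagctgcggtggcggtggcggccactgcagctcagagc
The matches in DKK1 began at -95 and -76 from the start, those in SP5 at -148, -109 and -84, and that in TCF7 at -50. The APCDD1 window held none of these letters. A match in a window is a description of the sequence and not evidence of binding.

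Against LIM1215-parental, the genes that encode pathway inhibitors and transcription factors moved upwards or did not pass the test, and none of the 10 fell. In LIM1215-R1, RNF43, NKD1, NOTUM, APCDD1, TCF7 and DKK1 rose, and AXIN2, ZNRF3, SP5 and LEF1 did not pass. In LIM1215-R2, RNF43, ZNRF3, NKD1, APCDD1, LEF1, TCF7 and DKK1 rose, and AXIN2, NOTUM and SP5 did not pass. A gene passed at an adjusted p (edgeR, quasi-likelihood) of 0.01 or less, and it was called a differentially expressed gene (DEG) where its log2 fold change was also at least 1.5 in size. All 10 genes cleared the filter of 10 counts over the 9 libraries, as did 19102 genes in all.

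In LIM1215-R1 against LIM1215-parental, 6 of the 10 genes were higher and 0 lower, beside 14.0% of all genes tested called higher and 13.4% called lower. Because the set was chosen with earlier results of these data known, setting it beside such shares is a description and not a test. DEGs among the 10 were NOTUM, APCDD1 and DKK1, all higher, beside 3.24% of all genes tested called as higher DEGs and 1.91% as lower DEGs. In LIM1215-R2 against LIM1215-parental, 7 of the 10 were higher and 0 lower, beside backgrounds of 12.3% and 11.6%. APCDD1 and DKK1 were the DEGs there, both higher, beside 2.63% of all genes called as higher DEGs and 2.19% as lower DEGs. The median log2 fold change of the 10 genes was 0.68 in LIM1215-R1 and 0.49 in LIM1215-R2, and that of all genes tested was -0.01 and -0.0037. Well-counted genes pass more often: among the 13412 genes that averaged 10 counts or more per library, a background chosen after the values were seen, 18.6% and 16.6% were called higher in LIM1215-R1 and LIM1215-R2. Of the 10, only NOTUM, with a mean of 9.11 counts per library, lay under that minimum. Both comparisons use the same 3 parental libraries, so the 5 genes higher in both (RNF43, NKD1, APCDD1, TCF7 and DKK1) are not independent observations.

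**Figure D1:**
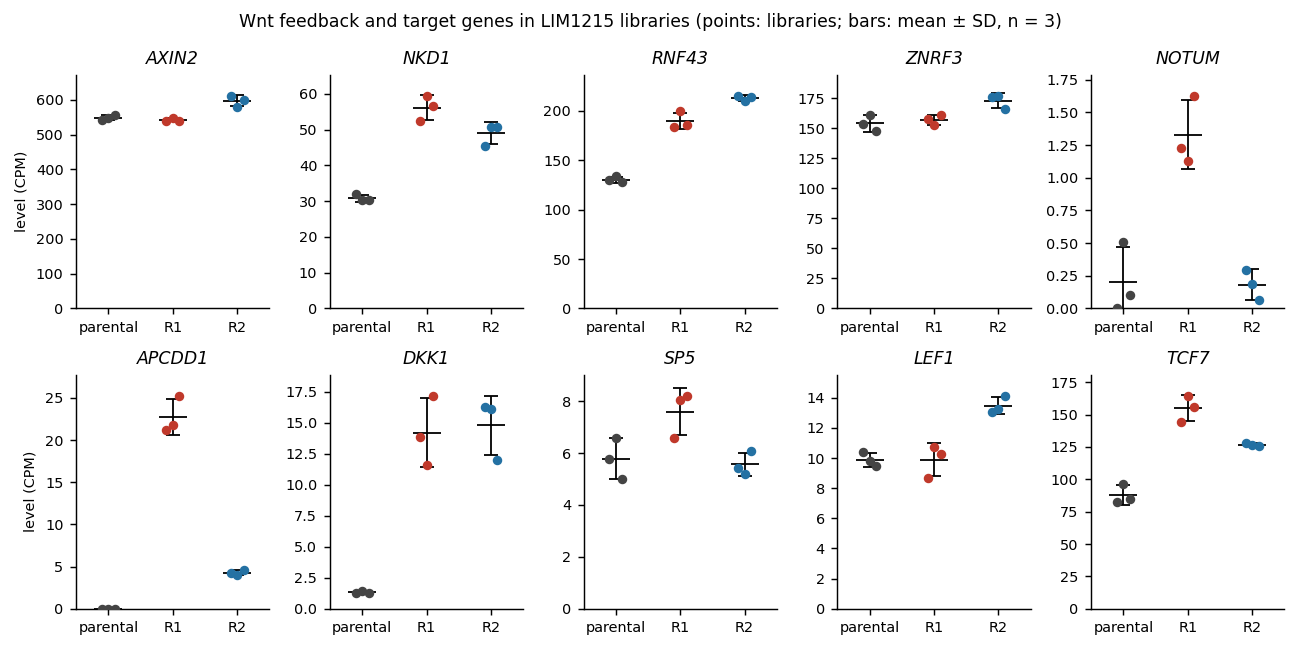
Level of each gene in CPM (vertical axes, each from 0) in the 3 libraries of LIM1215-parental (grey), LIM1215-R1 (red) and LIM1215-R2 (blue), with points for libraries and bars for the mean ± SD (n = 3); the lower bar of NOTUM in parental cells is cut at 0. APCDD1 lay at 0 in the parental libraries and between 3.96 and 25.2 CPM in the resistant ones, whereas AXIN2 lay between 540 and 612 CPM throughout.

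AXIN2 encodes a scaffold of the destruction complex and is the classic readout of Wnt activity. It maps to chromosome 17, 65528563 to 65561648 on the minus strand (GRCh38, GENCODE). Its level was 542, 548 and 556 CPM in LIM1215-parental, 541, 548 and 540 CPM in LIM1215-R1, and 612, 581 and 601 CPM in LIM1215-R2. The parental and LIM1215-R1 libraries overlapped, and the LIM1215-R2 libraries lay above both. In LIM1215-R1 the log2 fold change was -0.01 (SE 0.0376, adjusted p = 0.818), so a change of AXIN2 was not detected there. In LIM1215-R2 it was 0.12 (SE 0.0376), a 1.09-fold higher level whose adjusted p of 0.0110 narrowly missed the threshold, and 9 of 18 alternative analyses, among them those without LIM1215-R1 replicate 1 or 2, put it below 0.01 (lowest 0.00357).

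NKD1 encodes a cytoplasmic protein that binds Dishevelled and dampens the signal (chromosome 16, 50548396 to 50649249, plus strand). Its level was 32.0, 30.3 and 30.3 CPM in LIM1215-parental, 52.4, 59.5 and 56.6 CPM in LIM1215-R1, and 45.4, 50.7 and 50.8 CPM in LIM1215-R2. All 6 resistant libraries lay above all parental ones, and the LIM1215-R1 libraries lay above those of LIM1215-R2. NKD1 rose 1.82-fold in LIM1215-R1 (log2 0.86, SE 0.0696, adjusted p = 7.51e-11) and 1.59-fold in LIM1215-R2 (log2 0.67, SE 0.0704, adjusted p = 1.39e-08). Of these cytoplasmic inhibitors, NKD1 therefore passed in both resistant lines and AXIN2 in neither, and the difference between the genes was not tested. In bulk libraries of mixed populations, more cells that express a gene and more RNA per cell cannot be told apart.

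RNF43 and ZNRF3 encode related transmembrane ubiquitin ligases that remove Frizzled receptors from the cell surface and are themselves held back by R-spondins. RNF43 (chromosome 17, 58353676 to 58417595, minus strand) was at 130, 134 and 128 CPM in LIM1215-parental, 184, 199 and 186 CPM in LIM1215-R1, and 215, 210 and 214 CPM in LIM1215-R2. Its groups did not overlap in any comparison, with parental cells lowest and LIM1215-R2 highest. RNF43 rose 1.46-fold in LIM1215-R1 (log2 0.54, SE 0.0473, adjusted p = 3.76e-10) and 1.63-fold in LIM1215-R2 (log2 0.71, SE 0.0472, adjusted p = 1.47e-12). ZNRF3 (chromosome 22, 28883572 to 29057488, plus strand) was at 154, 161 and 147 CPM in LIM1215-parental, 157, 153 and 161 CPM in LIM1215-R1, and 176, 177 and 166 CPM in LIM1215-R2. The parental and LIM1215-R1 ranges of ZNRF3 overlapped, and LIM1215-R2 lay above both. In LIM1215-R1 the log2 fold change of ZNRF3 was 0.03 (SE 0.0491, adjusted p = 0.726). In LIM1215-R2 ZNRF3 rose 1.12-fold (log2 0.17, SE 0.0489, adjusted p = 0.00837), a call lost in 6 of 18 alternatives. These were scaling by total counts (adjusted p = 0.0160) and leaving out LIM1215-parental replicate 1 or 3, LIM1215-R1 replicate 3, or LIM1215-R2 replicate 1 or 2, with an adjusted p of up to 0.0700 without LIM1215-parental replicate 3. AXIN2, NKD1, RNF43 and ZNRF3 each share part of their span with another annotated gene on the same strand, and how reads from the shared stretches were counted is not given in the sources used here.

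NOTUM, APCDD1 and DKK1 encode inhibitors that act outside the cell or at its surface, and in LIM1215-R1 they held the largest differences among the 10 genes. DKK1 is a secreted protein that binds LRP co-receptors and blocks the Wnt receptor complex (chromosome 10, 52314281 to 52318042, plus strand). It was at 1.30, 1.44 and 1.26 CPM in LIM1215-parental, from 20 to 24 counts per library. In LIM1215-R1 it was at 13.9, 11.6 and 17.1 CPM, and in LIM1215-R2 at 16.2, 16.1 and 12.0 CPM. All resistant libraries lay above all parental ones, and those of the 2 resistant lines overlapped. DKK1 rose 10.7-fold in LIM1215-R1 (log2 3.41, SE 0.191, adjusted p = 3.68e-14) and 11.1-fold in LIM1215-R2 (log2 3.48, SE 0.190, adjusted p = 2.24e-14). Shrunken fold changes in DESeq2, which pull values with few counts towards 0, were smaller, at log2 2.75 and 2.80.

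APCDD1 is a membrane-bound glycoprotein that binds Wnt and LRP5 and inhibits signaling (chromosome 18, 10454635 to 10489949, plus strand). No count was found in any parental library, which allows a level of up to 0.0602 CPM over the line (3 counts over its libraries). LIM1215-R1 had 346, 347 and 403 counts, or 21.2, 21.8 and 25.2 CPM. LIM1215-R2 had 72, 64 and 70 counts, or 4.28, 3.96 and 4.57 CPM. The 3 lines were therefore fully apart, with LIM1215-R1 highest. Set against the parental limit, the level in LIM1215-R1 was at least 378-fold higher (adjusted p = 6.61e-19), and that in LIM1215-R2 at least 71.0-fold higher (adjusted p = 4.65e-13). The shrunken DESeq2 values for APCDD1 were log2 4.89 and 2.63.

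NOTUM is a secreted carboxylesterase that strips the lipid from Wnt proteins (chromosome 17, 81952507 to 81961840, minus strand). It was the lowest counted of the 10 genes, with 0, 7 and 2 counts in LIM1215-parental, 20, 18 and 26 in LIM1215-R1, and 5, 3 and 1 in LIM1215-R2. In CPM these were 0, 0.506 and 0.105 for LIM1215-parental, 1.23, 1.13 and 1.63 for LIM1215-R1, and 0.297, 0.186 and 0.0653 for LIM1215-R2. The LIM1215-R1 libraries lay above all others, and parental and LIM1215-R2 libraries overlapped near the detection limit. In LIM1215-R1 NOTUM rose 7.01-fold (log2 2.81, SE 0.563, adjusted p = 0.000222), and the ratio of counts was 7.35 with an exact 95% interval of 3.64 to 16.8 that covers counting error only. The size of this change rested on parental replicate 2, without which the log2 fold change was 4.41, and on parental replicate 1, without which it was 2.22; the gene passed in both. Shrunken in DESeq2 it was 1.05, under the size that makes a DEG. In LIM1215-R2 the log2 fold change was 0.02 (SE 0.782, adjusted p = 0.987), and the interval of the count ratio, 0.363 to 2.94, leaves changes of several fold in either direction undetectable at this depth.

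**Figure D2:**
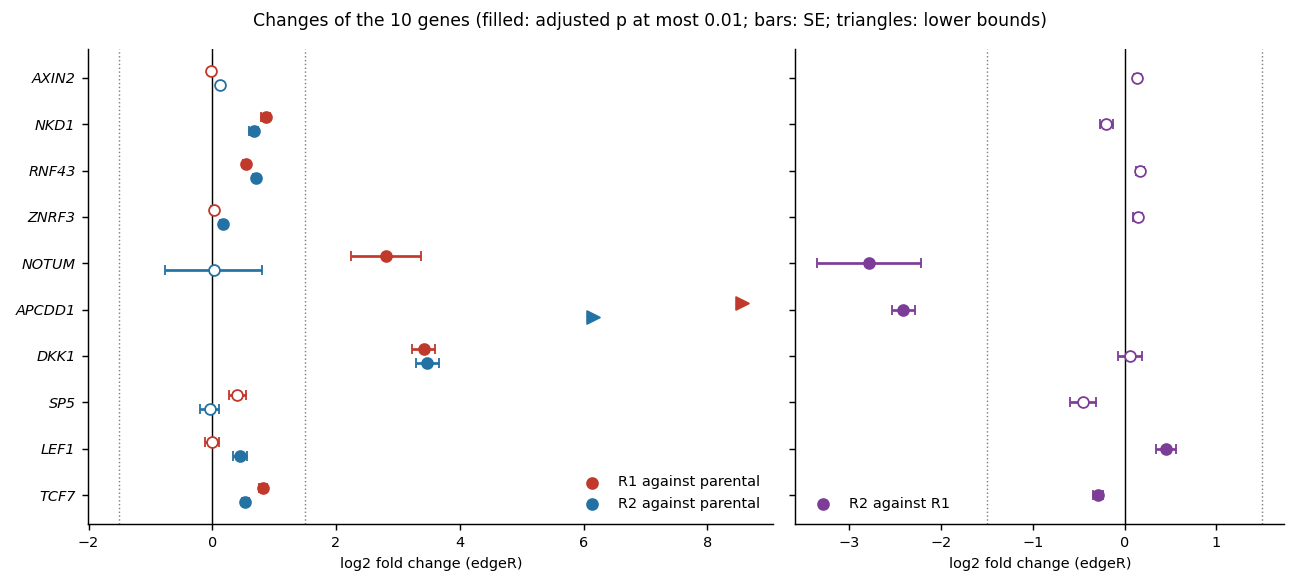
Log2 fold changes (horizontal axes) of the 10 genes for each resistant line against LIM1215-parental (left) and for LIM1215-R2 against LIM1215-R1 (right), with SE bars, filled points for genes that passed, triangles for the lower bounds of APCDD1 and dotted lines at a size of 1.5. DKK1, at 3.41 and 3.48, and APCDD1 lie far to the right in both resistant lines, whereas NOTUM does so in LIM1215-R1 at 2.81.

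SP5, LEF1 and TCF7 encode DNA-binding proteins. SP5 is a zinc-finger repressor and a direct β-catenin target (chromosome 2, 170715337 to 170718078, plus strand). It was at 5.78, 6.57 and 4.99 CPM in LIM1215-parental, 6.56, 8.03 and 8.20 CPM in LIM1215-R1, and 5.41, 5.20 and 6.07 CPM in LIM1215-R2. The ranges of both resistant lines overlapped that of parental cells. Neither difference of SP5 passed, the log2 values being 0.41 (SE 0.142, adjusted p = 0.0262) in LIM1215-R1 and -0.04 (SE 0.149, adjusted p = 0.869) in LIM1215-R2. Without LIM1215-R1 replicate 1, the lowest of its line, SP5 passed in LIM1215-R1 (log2 0.50, adjusted p = 0.00958).

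LEF1 and TCF7 belong to the TCF/LEF family, which carries β-catenin on DNA. LEF1 (chromosome 4, 108047545 to 108168956, minus strand) was at 10.4, 9.82 and 9.45 CPM in LIM1215-parental, 8.65, 10.7 and 10.3 CPM in LIM1215-R1, and 13.1, 13.3 and 14.1 CPM in LIM1215-R2. The LIM1215-R2 libraries lay above all others, and the other lines overlapped. In LIM1215-R1 the mean of LEF1, 9.88 ± 1.09 CPM (SD, n = 3), was close to the parental 9.89 ± 0.469 CPM (adjusted p = 0.996, SE of the log2 fold change 0.112). In LIM1215-R2 LEF1 rose 1.36-fold (log2 0.45, SE 0.107, adjusted p = 0.00166), a call lost when LIM1215-parental replicate 3 (adjusted p = 0.0129) or LIM1215-R2 replicate 3 (adjusted p = 0.0105) was left out.

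TCF7 (chromosome 5, 134114681 to 134151865, plus strand) was at 82.7, 96.6 and 84.5 CPM in LIM1215-parental, 144, 164 and 156 CPM in LIM1215-R1, and 128, 126 and 126 CPM in LIM1215-R2. The 3 lines did not overlap, with LIM1215-R1 highest and parental cells lowest. TCF7 rose 1.76-fold in LIM1215-R1 (log2 0.82, SE 0.0589, adjusted p = 7.07e-12) and 1.45-fold in LIM1215-R2 (log2 0.53, SE 0.0593, adjusted p = 3.63e-08). Gene-level counts do not separate the long TCF7 isoforms that bind β-catenin from the short ones that lack the binding domain and repress.

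The resistant lines were then compared with each other, LIM1215-R2 against LIM1215-R1. Among the 10 genes LEF1 was higher in LIM1215-R2, NOTUM, APCDD1 and TCF7 were lower, and 6 did not pass, beside 3.39% of all genes tested called higher and 3.77% called lower. NOTUM and APCDD1 were DEGs, both lower, beside 0.215% of all genes called as higher DEGs and 0.550% as lower DEGs. APCDD1 was 5.32-fold lower in LIM1215-R2 than in LIM1215-R1 (log2 -2.41, SE 0.124, adjusted p = 4.73e-13). NOTUM was 6.89-fold lower (log2 -2.78, SE 0.563, adjusted p = 0.00104), a call lost when LIM1215-R1 replicate 3 (adjusted p = 0.0128) or LIM1215-R2 replicate 2 (adjusted p = 0.0107) was left out. Its shrunken DESeq2 value was log2 -1.05, under the size that makes a DEG. TCF7 was 1.22-fold lower (log2 -0.29, SE 0.0575, adjusted p = 0.000939), lost without LIM1215-R2 replicate 2 (adjusted p = 0.0108). LEF1 was 1.36-fold higher (log2 0.45, SE 0.108, adjusted p = 0.00523), a call lost in 5 of the 9 fits that left out 1 library and in DESeq2 (adjusted p = 0.0117); the leave-one-out losses came without LIM1215-R1 replicate 1, where adjusted p was 0.0339, LIM1215-R1 replicate 3 and each of the LIM1215-R2 replicates.

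The genes that did not pass between the resistant lines were of several kinds. AXIN2, RNF43 and ZNRF3 were nominally higher in LIM1215-R2, with log2 differences of 0.14 (adjusted p = 0.0128), 0.17 (adjusted p = 0.0158) and 0.14 (adjusted p = 0.0564). AXIN2 (adjusted p = 0.00809) and RNF43 (adjusted p = 0.00892) passed without LIM1215-parental replicate 2, and RNF43 also without LIM1215-R1 replicate 2 (adjusted p = 0.00479). NKD1 and SP5 were nominally lower, with -0.20 (adjusted p = 0.0492) and -0.45 (adjusted p = 0.0366). DKK1 differed by 0.06 (SE 0.127, adjusted p = 0.830). The libraries of the 2 lines did not overlap for 9 of the 10 genes, DKK1 being the exception, beside 28.0% of all genes tested. Against LIM1215-parental, libraries did not overlap for 6 of the 10 genes in LIM1215-R1 (44.0% of all genes tested) and for 8 in LIM1215-R2 (42.8%).

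To compare levels between genes, CPM was divided by the length in kb of the Ensembl canonical transcript (GENCODE). In LIM1215-parental AXIN2 stood first at 129 CPM per kb, followed by RNF43 at 28.8, TCF7 at 26.7 and ZNRF3 at 22.4. SP5 at 2.82, LEF1 at 2.77, NKD1 at 1.81 and DKK1 at 0.739 CPM per kb came next, with NOTUM at 0.0916 and APCDD1 at 0. NKD1 lay below SP5 and LEF1 per kb although its CPM was higher, since its canonical transcript is 17039 bases long, against 2047 for SP5 and 3575 for LEF1. Neighbors whose library ranges overlapped were RNF43 with TCF7, SP5 with LEF1, and NOTUM with APCDD1.

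In both resistant lines AXIN2 stayed first, at 127 CPM per kb in LIM1215-R1 and 140 in LIM1215-R2, and NOTUM was last, at 0.597 and 0.0822. DKK1 held the fifth place in both, at 7.87 CPM per kb in LIM1215-R1, where its range overlapped that of APCDD1 at 5.98, and at 8.19 in LIM1215-R2. APCDD1 was ninth in LIM1215-R2, at 1.12 CPM per kb. TCF7, at 47.1 CPM per kb, and RNF43, at 41.9, overlapped in LIM1215-R1, while in LIM1215-R2 RNF43, at 47.1, lay above TCF7 at 38.6. The other overlapping neighbors were SP5 with NKD1 in LIM1215-R1 and NKD1 with SP5 in LIM1215-R2. Some places depend on the length used. Per kb of all annotated exons, a length chosen after the values were seen, TCF7 took the fourth place in every line, below ZNRF3, at 8.71, 15.3 and 12.6 CPM per kb of all exons. On that scale ZNRF3 also stood above RNF43, at 20.6, in LIM1215-parental, and LEF1, at 2.51, stood below NKD1, at 2.82, and SP5, at 2.68, in LIM1215-R2.

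**Figure D3:**
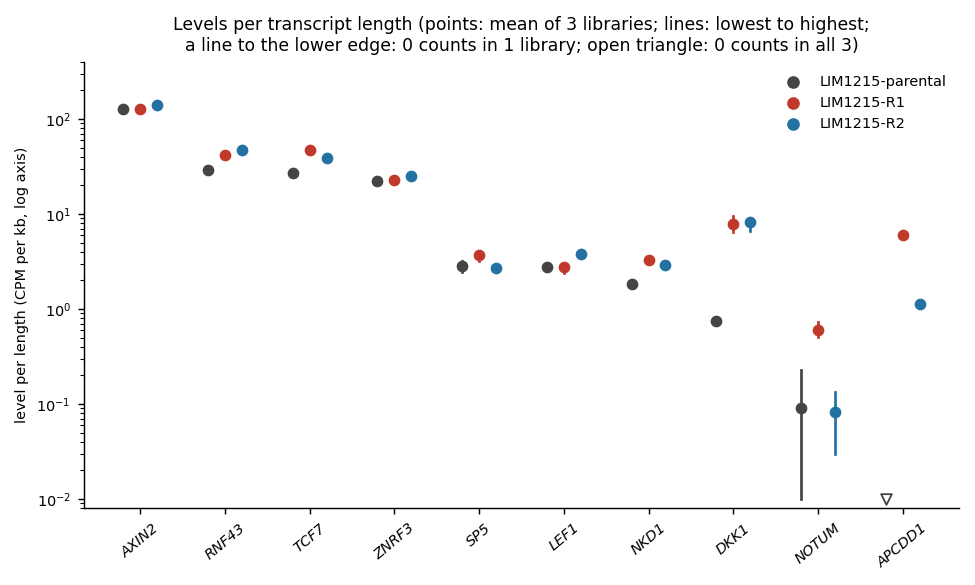
Level per kb of canonical transcript (vertical log axis, CPM per kb) of the 10 genes, ordered by their parental level, in the 3 lines, with points for the mean of 3 libraries and lines from the lowest to the highest library; a line to the lower edge marks a library at 0 counts and the open triangle the 3 parental libraries of APCDD1 at 0 counts. AXIN2 lies at 127 to 140 CPM per kb in all lines, and DKK1 moves from 0.739 to 7.87 and 8.19 CPM per kb.

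The genes whose pattern over the 9 libraries was most like that of AXIN2 and APCDD1 were sought among 13411 well-counted genes by Pearson's r of log2 CPM, as a description in which all points share the same libraries. For AXIN2 they were SRRM2 (r = 0.981), XRRA1 (r = 0.971) and ZDHHC11B (r = 0.967). The mean of SRRM2, a splicing factor gene, was 939, 934 and 1053 CPM in parental, LIM1215-R1 and LIM1215-R2 cells. For APCDD1 they were SQSTM1 (r = 0.997), EREG (r = 0.996) and NETO2 (r = 0.996). The mean of EREG, which encodes the EGFR ligand epiregulin, was 34.4, 287 and 139 CPM in the same order.

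Other genes of the Wnt pathway were taken from 7 lists by role, with 104 genes in all; LGR5 is in both the R-spondin list and the list of other targets and is counted once here but in each list below. Of these, 80 were tested, 18 rose and 21 fell in LIM1215-R1, while LIM1215-R2 had 21 that rose and 19 that fell, beside the backgrounds given above. Their median log2 fold change was -0.0033 and 0.04. DEGs among them were 8 higher and 0 lower in LIM1215-R1, and 9 higher and 2 lower in LIM1215-R2. Of all genes tested, 3.24% were higher DEGs and 1.91% lower DEGs in LIM1215-R1, and 2.63% and 2.19% in LIM1215-R2. Unlike the 10 feedback and target genes, of which none fell, these genes passed at any size in both directions in similar numbers. Their DEGs, like those of the 10, were mostly higher. Neither comparison with the 10 genes was tested. Between the resistant lines 8 of the 80 tested were higher and 5 lower in LIM1215-R2, with 0 DEGs. Of all genes tested, 3.39% were called higher and 3.77% lower there, with 0.215% as higher DEGs and 0.550% as lower DEGs.

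Among 19 Wnt ligands 10 were tested, 4 were higher and 1 lower in each resistant line against LIM1215-parental. Of all genes tested, 14.0% were called higher and 13.4% lower in LIM1215-R1, and 12.3% and 11.6% in LIM1215-R2. No list was tested as a whole. WNT6 had means of 1.41, 18.6 and 6.76 CPM in parental, LIM1215-R1 and LIM1215-R2 cells (log2 3.72 and 2.26 against parental). WNT10B had means of 1.29, 11.2 and 9.71 CPM (log2 3.11 and 2.91), and WNT7B 0.803, 4.94 and 2.31 CPM (log2 2.64 and 1.55). WNT6 and WNT7B, like APCDD1, were lower in LIM1215-R2 than in LIM1215-R1 (log2 -1.46, adjusted p = 3.32e-10, and -1.09, adjusted p = 0.000266). WNT11 was higher at 14.0, 20.5 and 19.6 CPM, and WNT9A was lower at 1.75, 0.705 and 0.331 CPM, a DEG in LIM1215-R2 (log2 -2.36).

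Among 14 tested receptors and co-receptors, 3 rose and 5 fell in LIM1215-R1, while LIM1215-R2 had 4 that rose and 5 that fell. The shares of all genes tested were 14.0% higher and 13.4% lower in LIM1215-R1, and 12.3% and 11.6% in LIM1215-R2. ROR1, a receptor tyrosine kinase that binds Wnt proteins, rose from 0.116 CPM to 3.09 and 4.41 CPM (log2 4.60 and 5.11). FZD9 (0.363, 1.29 and 1.15 CPM) and FZD10 (1.82, 3.78 and 5.21 CPM) also rose. The Frizzled receptors FZD7, at 21.3, 8.92 and 7.28 CPM, FZD5, at 223, 144 and 149 CPM, FZD2, at 24.6, 15.1 and 12.6 CPM, and FZD1, at 19.0, 11.2 and 13.1 CPM, fell in both lines, as did the co-receptor LRP6, at 115, 83.2 and 95.9 CPM. FZD7 was a DEG in LIM1215-R2 (log2 -1.55).

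For R-spondin receptors and Wnt secretion, 5 of 9 genes were tested. The 4 R-spondins had 0 counts in all libraries. LGR6, an R-spondin receptor, rose from 0.599 to 4.40 and 2.11 CPM (log2 2.85 and 1.79). LGR4, a receptor of the same kind, fell from 77.7 to 50.7 and 48.6 CPM, and WLS, the Wnt cargo receptor, from 99.8 to 86.9 and 76.2 CPM. LGR5, a stem cell marker named after its values were seen, was at 676, 557 and 721 CPM, lower in LIM1215-R1 (log2 -0.28, adjusted p = 1.14e-06) and with an adjusted p of 0.0584 in LIM1215-R2. Of the 11 other antagonists 4 were tested. KREMEN2, which binds DKK1, rose from 0.0657 CPM to 1.02 and 0.897 CPM, with count ratios of 16.9 (exact 95% interval 5.45 to 84.7) and 14.8 (4.74 to 74.6). Its relative KREMEN1 fell from 65.4 to 46.7 and 39.9 CPM.

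In the destruction complex and cytoplasmic list, all 15 genes were tested and none was a DEG, beside the DEG shares of all genes given above. CTNNB1, which encodes β-catenin, rose from 590 to 791 and 891 CPM (log2 0.42, adjusted p = 3.71e-10, and 0.59, adjusted p = 3.21e-13). The Dishevelled genes went apart, DVL1 rising from 99.4 to 121 CPM in both lines and DVL2 falling from 52.5 to 44.2 and 43.5 CPM. In the nuclear list of 14 tested genes, 2 rose and 5 fell in LIM1215-R1, while LIM1215-R2 had 3 that rose and 4 that fell. The shares of all genes tested were 14.0% higher and 13.4% lower in LIM1215-R1, and 12.3% and 11.6% in LIM1215-R2. TLE2, a co-repressor of the TCF/LEF family, rose from 0.317 to 4.40 and 5.69 CPM (log2 3.75 and 4.12). The co-activator BCL9L rose from 123 to 212 and 211 CPM, whereas BCL9 (42.3, 28.3 and 26.6 CPM), PYGO1 (35.6, 24.6 and 25.5 CPM) and CTNNBIP1, an inhibitor of β-catenin (24.0, 18.9 and 16.0 CPM), fell.

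Among 19 other tested Wnt targets, 4 rose and 5 fell in LIM1215-R1, while LIM1215-R2 had 6 that rose and 4 that fell. The shares of all genes tested were 14.0% higher and 13.4% lower in LIM1215-R1, and 12.3% and 11.6% in LIM1215-R2. SLC12A2, at 374, 530 and 638 CPM, and PPARD, at 42.9, 66.0 and 63.8 CPM, rose in both lines. CDX1, an intestinal identity factor, at 195, 108 and 124 CPM, and PTPRO, at 14.3, 10.5 and 9.87 CPM, fell in both. MYC, named after its values were seen, was at 283, 292 and 286 CPM and passed in neither line (adjusted p = 0.536 and 0.878). CCND1, ASCL2 and EPHB2, also named after their values were seen, passed in LIM1215-R1 in edgeR. CCND1 rose, at 1100, 1497 and 1565 CPM (log2 0.44 in LIM1215-R1, adjusted p = 1.16e-11). ASCL2, at 425, 293 and 314 CPM (log2 -0.53, adjusted p = 7.41e-10), and EPHB2, at 299, 201 and 241 CPM (log2 -0.57, adjusted p = 5.40e-11), fell there. These differences were not particular to LIM1215-R1. In LIM1215-R2 all libraries of CCND1 also lay above all parental ones, and those of ASCL2 and EPHB2 lay below.

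**Figure D4:**
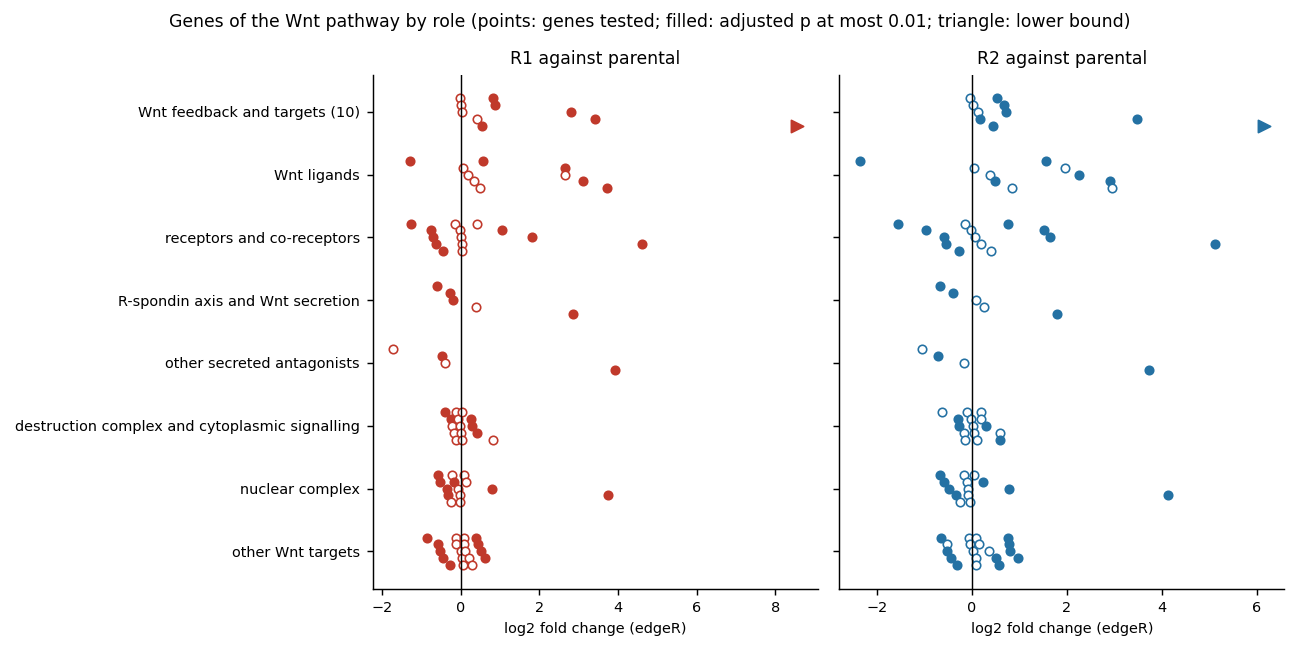
Log2 fold changes (horizontal axes) of the 10 genes and of the tested genes of 7 pathway lists (rows) in LIM1215-R1 (left) and LIM1215-R2 (right) against LIM1215-parental, with filled points for genes that passed and a triangle for the lower bound of APCDD1. Filled points of the 10 genes lie right of 0 in both panels, whereas those of the other lists lie on both sides. In LIM1215-R1 these are 18 genes right and 21 left, where LGR5, drawn in both of its lists, is counted once.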

How the data were processed

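Poly(A) RNA of the parental LIM1215 line and of both resistant lines (3 libraries each) was sequenced with a stranded kit. The authors aligned paired reads to hg38 with STAR and deposited raw counts per gene symbol from HTSeq 0.9.1 with the reverse-strand setting; the annotation is not given in the sources used here. Each sample's group was taken from its labels. The 19102 of 58920 genes that reached 10 counts summed across the 9 libraries were fitted in 1 model with edgeR 4.0.16 (R 4.3.3; TMM, quasi-likelihood, two-sided, Benjamini-Hochberg over all genes tested). CPM was the count per 1000000 of the TMM-scaled library total. Fold bounds used 3 counts over a line's libraries. Intervals cover counting error only.

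The genes and pathway lists were chosen with earlier results of these data known. All 10 genes were named; from each pathway list, every DEG and up to 4 others that passed against LIM1215-parental in both resistant lines were named, ordered by the smaller change. Names outside this rule are marked. Alternatives included DESeq2 1.42.0, other normalizations and filters, leaving out each library, and a replicate block. Replicate numbers were not taken to pair libraries: correlations of same-numbered deviations ran from -0.106 to 0.274, with 3 of 9 over 0.1. The scripts were tested on simulated data. Protein sequences were not used here.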

Additional observations from a re-analysis of the deposited data

Results flagged for a closer look

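For 4 of the 10 genes the change against LIM1215-parental differed between the resistant lines by a direct edgeR test of LIM1215-R2 against LIM1215-R1, the parental libraries being shared. Of all genes tested, 3.39% were called higher and 3.77% lower in that comparison. NOTUM (log2 difference -2.78, SE 0.563, adjusted p = 0.00104) rested on 64 counts in LIM1215-R1 and 9 in LIM1215-R2. APCDD1 differed by -2.41 (SE 0.124, adjusted p = 4.73e-13). LEF1 differed by 0.45 (SE 0.108, adjusted p = 0.00523), with all LIM1215-R2 libraries above all LIM1215-R1 libraries. TCF7 differed by -0.29 (SE 0.0575, adjusted p = 0.000939). The calls of NOTUM, LEF1 and TCF7 were each lost when certain single libraries were left out, as given above, and that of LEF1 also in DESeq2. No group had the 4 samples needed to look for a single library that stands apart. The causes of these differences were not tested.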

How the results depend on the processing

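Of 534 values of single genes under alternatives, 477 kept their direction and their side of the threshold, 18 lost the call, 19 gained it and 20 changed sign. Requiring at least 10 counts in every library, a filter that removes APCDD1 and NOTUM from testing, gave 302, 297 and 34 DEGs (982, 921 and 146 in the reported analysis, for LIM1215-R1 and LIM1215-R2 against parental and for LIM1215-R2 against LIM1215-R1), with 1, 1 and 0 of the 10 genes called DEGs and 2 of the 10 passing between the resistant lines. Shrunken DESeq2 fold changes gave 394, 408 and 41 DEGs and 1 of the 10 genes called a DEG between the resistant lines, and a log2 size of 1 gave 270 DEGs there. Leaving out 1 library at a time gave 743 to 1712 genes passing between the resistant lines (1368 reported), lowest without LIM1215-R2 replicate 1 and 772 and 860 without LIM1215-R2 replicate 2 and LIM1215-R1 replicate 3. Of the 10 genes 1 to 6 passed there (4 reported), with 1 without LIM1215-R2 replicate 2, 2 without LIM1215-R1 replicate 3 and 6 without LIM1215-parental replicate 2, and 1 to 2 were DEGs (1 without LIM1215-R1 replicate 3 or LIM1215-R2 replicate 2). Of the other pathway genes 8 to 16 passed (13 reported), with 8 without LIM1215-R2 replicate 1 or 2.

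The sign changed only for values that did not pass. ZNRF3 in LIM1215-R1 was -0.01 with total counts and 0.00 to 0.06 with 1 library left out. LEF1 in LIM1215-R1 was 0.01 in 6 settings and -0.06 to 0.09 with 1 library left out. NOTUM in LIM1215-R2 was -0.02 and -0.01 in DESeq2 without and with shrinkage, and -0.56 to 1.62 with 1 library left out. With 1 library left out SP5 in LIM1215-R2 ran from -0.15 to 0.05, and DKK1 between the resistant lines from -0.06 to 0.22. The causes were not tested.

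The replicate numbers were not taken to pair libraries, and 3 of 9 same-numbered pairs had their best correlation with their own number. With the replicate block 20 other pathway genes passed between the resistant lines (13 reported), and AXIN2 passed in LIM1215-R2 against parental (log2 0.12, adjusted p = 0.0038) and against LIM1215-R1 (0.14, adjusted p = 0.00317), as did RNF43 between the resistant lines (0.17, adjusted p = 0.00381). The number of all genes passing between the resistant lines also moved, from 743 to 2044 over the alternatives (1368 reported), so the count of 20 is not a result about the pathway.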
